A study of Drosophila melanogaster with 65 samples.

Results

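The piwi gene of Drosophila melanogaster was followed through 24 long RNA libraries, 1 list of Traffic jam (TJ) binding peaks and 8 lists of histone mark summits. It is 1 of the 16369 genes in the deposited gene tables and was taken by its symbol, with every count that the tables give for it and every peak or summit inside the gene or within 1 kb of it. Long RNA came from OSS cells, a cell line of ovarian somatic origin that has no germ cells, and from whole ovaries. The OSS cells had been treated with siRNAs against Traffic jam (siTj), Piwi (siPiwi), Cubitus interruptus (siCi) or, as the control, GFP (siGFP), with 3 libraries each. The ovaries came from 6 fly lines that the labels call FPSE1, FPSE2A, FPSE2B, FITS, FlamBG and FlamKG, with 1 mutant and 1 wild-type library each. The submitters describe mutants with deletions made in the promoter region of flamenco, and the labels do not say which of the lines carry one. The exact allele of each line, its background and the age of the flies are not given in the sources used here, and the labels do not say whether libraries came from separate cultures or animals, so the p-values measure a spread between libraries that may be technical.

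Piwi is the nuclear member of the PIWI branch of Argonaute proteins, which bind small guide RNAs. In the follicle cells that surround the germline, Piwi carries piRNAs cut from the transcript of the flamenco locus into the nucleus, meets nascent transposon transcripts there and directs their silencing together with repressive histone methylation. The germline also holds the cytoplasmic relatives Aub and AGO3, which amplify piRNAs in a cleavage cycle. Traffic jam is a large Maf transcription factor of somatic gonad cells, and Cubitus interruptus is the transcription factor at the end of Hedgehog signalling.

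In the Release 6 assembly, piwi lies on the minus strand of chromosome 2L from 10982205 to 10987420, a locus of 5216 bases with 2 RefSeq transcripts. The tables divide it into a 5' UTR of 93 bases, a coding part of 2532 bases and a 3' UTR of 458 bases, which leaves 2133 bases outside these parts. Its 3' end overlaps by 191 bases with the 3' end of SCAR, a regulator of actin branching that is transcribed from the plus strand. On the other side, CG12253 starts 385 bases upstream of piwi and points away from it. The PIWI family gene aub lies 10398 bases away on the same strand as piwi.

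Reads that mapped once and on the sense strand of a gene numbered between 9075806 (siGFP replicate 1) and 54359738 (siGFP replicate 2) in OSS libraries and between 9676965 (FlamBG wild type) and 81892058 (FITS wild type) in ovaries. piwi alone held between 727 reads in siPiwi replicate 2 and 38261 in siGFP replicate 2, so counting error was small beside the spread between libraries. The germline genes nos, osk and otu were near zero in siGFP OSS cells, with means of 0.0776 CPM for nos, 0.0573 CPM for osk and 0.133 CPM for otu. The same genes averaged 1194, 805 and 337 CPM in wild-type ovaries, while the follicle cell gene tj averaged 1409 CPM in siGFP OSS cells and 209.8 CPM in wild-type ovaries. Of the other germline markers, vas, orb, bam and grk were also lower in siGFP OSS cells. bgcn and BicD were not, at 58.2 and 204 CPM against 54.7 and 163 CPM in ovaries. Of the other follicle cell markers, Wnt4 and br were higher in OSS cells. Fas3, eya, ct, slbo, peb, dec-1 and Vm26Aa were lower there, with Vm26Aa at 4.61 against 1454 CPM. Antisense reads made up 12.4% of the unique reads of siPiwi replicate 2 and 9.28% of those of siTj replicate 2, against 4.07% to 5.08% in the other OSS libraries, and the piwi changes and shares below are also given without siPiwi replicate 2 or siTj replicate 2 where leaving them out moves a value by over 1.5 times or ends a call. Levels below are TMM-scaled CPM, the read count of a gene divided by the adjusted size of its library, computed within OSS cells or within ovaries unless stated otherwise.

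The first comparison asked what happened to piwi when Traffic jam was depleted. The target tj was at 569, 218 and 594 CPM in siTj replicates 1, 2 and 3, against 2031.5, 1105 and 1212 CPM in siGFP replicates 1, 2 and 3. It did not overlap between the groups, and it fell with the replicate block (log2 −1.72, SE 0.32, edgeR adjusted p = 0.0198) while missing the threshold without it (adjusted p = 0.533). piwi was at 120 CPM in siTj replicate 1, at 169.6 CPM in siTj replicate 2 and at 313 CPM in siTj replicate 3, against 721, 661 and 902 CPM in siGFP replicates 1, 2 and 3. All siTj libraries lay below all siGFP libraries, and within each replicate number the siTj library held less than the siGFP library. Such a complete separation downward was found for 697 of the 10724 genes tested (6.5%). The mean of 201 ± 100.2 CPM in siTj was 26.4% of the siGFP mean of 761 ± 125 CPM (SD, n = 3 each).

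In the fit without pairing, the log2 fold change of siTj over siGFP was −1.92 (SE 0.508) with an adjusted p of 0.299 by edgeR's quasi-likelihood test with Benjamini-Hochberg adjustment, and 5 of 10724 genes (0.0466%) were called at 0.05. Libraries with the same replicate number deviated together in all 18 pairs of OSS groups and numbers examined. With the replicate number as a block, piwi fell with a log2 fold change of −1.998 (SE 0.379, edgeR adjusted p = 0.0216), in a fit that called 377 of 10724 genes (3.52%). DESeq2 without a block gave −1.89 (SE 0.473, adjusted p = 0.00753) and called 208 of the 9238 genes to which it gave an adjusted p (2.25%). The blocked call was lost without siTj replicate 1 (−1.89, adjusted p = 0.083) and without siGFP replicate 1 (−2.13, adjusted p = 0.0678), at changes of like size.

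**Figure D1:**
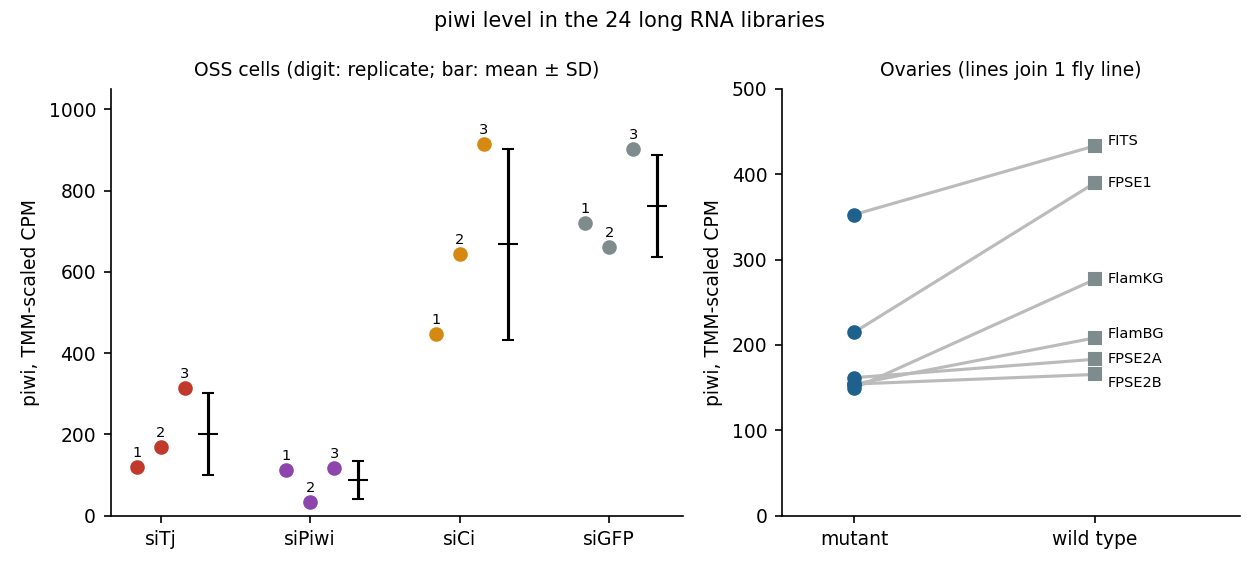
TMM-scaled CPM of piwi in each library: OSS cells by siRNA on the left, with the replicate number at each point and bars for mean ± SD of 3 libraries, and ovaries on the right, where each line joins the mutant and wild-type library of 1 fly line. The 3 siTj libraries reach at most 313 CPM and the 3 siPiwi libraries at most 118 CPM, all below the lowest siGFP library at 661 CPM, and every mutant ovary lies below its wild-type partner.

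The siTj libraries also differed from siGFP in other genes. Summed levels of 8 heat shock genes were 8350 to 19925 CPM in siTj and 5388 to 9427 CPM in siGFP, with 3 of the 8 above every siGFP library in every siTj library. Summed levels of 6 muscle genes were 170.1 to 257 CPM in siTj and 70.7 to 99.0 CPM in siGFP, with 2 of the 6 separated upward. For 6 hemocyte and fat body genes the sums were 351 to 1056 CPM in siTj and 117 to 269 CPM in siGFP, with 3 of the 6 separated upward. The 10 follicle cell markers summed to 2038 to 3235 CPM in siTj and 2996 to 5328 CPM in siGFP, with 3 separated downward and 1 upward. These 10 include tj, the target of siTj, which is 1 of the 3, so its own fall lowers that sum. The 9 germline markers summed to 291 to 339 CPM in siTj and 248 to 313 CPM in siGFP. None of these markers was at 0 in all siTj and siGFP libraries, and their part in the piwi result was not tested. Of all genes tested, 6.5% were separated downward. The share separated upward was not counted, so the upward marker counts cannot be set against it. In bulk RNA, fewer cells of a type and less RNA per cell cannot be told apart.

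The second comparison was the depletion of Piwi itself, in which piwi is the targeted gene. piwi was at 113, 34.2 and 118 CPM in siPiwi replicates 1, 2 and 3, which is 11.6% of the siGFP mean. Every siPiwi library lay below every siGFP library, a separation shared by 61 of 10724 genes (0.569%). Without pairing the log2 fold change was −3.11 (SE 0.533), yet the adjusted p by edgeR was 0.822, and this fit called 0 of 10724 genes (0.0%) while 63 had an unadjusted p under 0.05. With the replicate block the change was −3.17 (SE 0.399, edgeR adjusted p = 0.0541) and again 0 genes (0.0%) were called, while 243 had an unadjusted p under 0.05. DESeq2 called piwi (−3.11, adjusted p = 3.85e-07) as 1 of 3 genes among 14851 (0.0202%). Without siPiwi replicate 2, whose antisense share is high, the blocked fit gave −2.74 with an edgeR adjusted p of 0.0243. The blocked edgeR call was also made without siPiwi replicate 1 (adjusted p = 0.000349), siGFP replicate 2 (0.00682) or siGFP replicate 3 (0.0181), and not without siPiwi replicate 3 (0.0785) or siGFP replicate 1 (0.223). Summed heat shock genes were at 5812 to 12834 CPM in siPiwi and 5388 to 9427 CPM in siGFP, with 0 of the 8 separated.

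Most reads that remained after siPiwi lay in the coding part, as in the control, but a larger share lay outside the annotated parts. The coding part held 90.4%, 80.3% and 82.7% of the sense reads in siPiwi replicates 1, 2 and 3. In siGFP replicates 1, 2 and 3 it held 97.8%, 96.7% and 95.2%. Outside the UTRs and the coding part, in the bases that include the introns, lay 6.67%, 15.0% and 12.7% of the sense reads of piwi in siPiwi replicates 1, 2 and 3, against 0.481%, 0.481% and 1.82% in siGFP replicates 1, 2 and 3. The siPiwi shares were all above the siGFP shares, with means of 11.5 ± 4.31% and 0.929 ± 0.776% (SD, n = 3 each). The exact two-sided permutation test gave p = 0.1, the smallest that 3 against 3 allows (0.179 adjusted over 25 such tests). Among the 5513 genes with at least 100 sense reads in each OSS library, 111 (2.01%) had all siPiwi shares above all siGFP shares. The mean difference was 10.5 percentage points at piwi, against a median of 0.0203 points over those genes, and 0.58% of them had a larger difference.

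Taken as levels, the coding part was lower after siPiwi, while the rest of the locus overlapped siGFP. The coding part held 101.8, 27.5 and 97.7 CPM in siPiwi replicates 1, 2 and 3, against 705, 639 and 858 CPM in siGFP replicates 1, 2 and 3, so that the siPiwi mean was 10.3% of the siGFP mean. The rest of the locus held 7.51, 5.13 and 15.1 CPM in siPiwi, against 3.46, 3.18 and 16.5 CPM in siGFP, a mean of 119.9% of siGFP with overlapping groups (exact two-sided permutation p = 0.6). That percentage rests on siGFP replicate 3, without which the siPiwi mean was 278% of siGFP and the groups did not overlap. In siTj the coding part held 115.9, 162 and 300.5 CPM, or 26.3% of the siGFP mean, and its rest of the locus 1.03, 2.58 and 4.53 CPM, or 35.2% of the siGFP mean. The siTj values for the rest of the locus overlapped those of siGFP (exact two-sided permutation p = 0.4). Their mean was 81.7% of siGFP without siGFP replicate 3, and 23.4% without siTj replicate 3, where the groups did not overlap. As a share of piwi reads the rest was 1.28 ± 0.366% in siTj and 0.929 ± 0.776% in siGFP (SD, n = 3 each), also overlapping. The rest is the locus count minus the counts of the parts. A read that touches 2 parts is counted in both, so this difference is a lower limit, and it came out negative in siCi replicate 1 at −0.949%, or −4.23 CPM. The shortfall can be larger where the parts hold more reads, as they do in siGFP beside siPiwi and siTj. The level of the rest may then be understated more in siGFP, and the percentages of siGFP given for it may be too high.

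**Figure D2:**
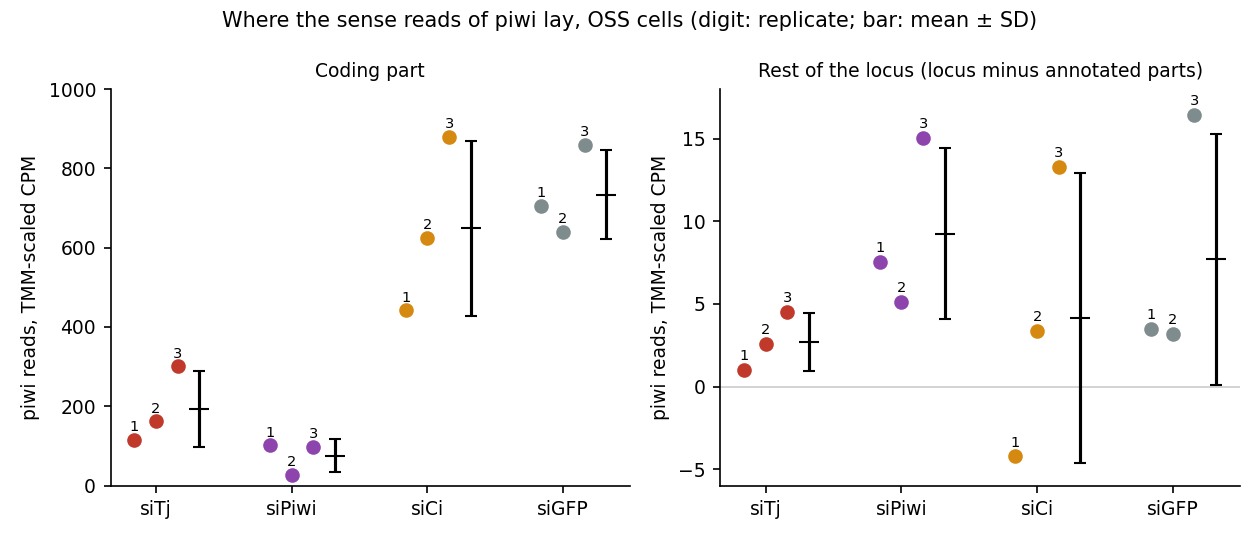
TMM-scaled CPM of piwi reads in the coding part (left) and in the rest of the locus outside the UTRs and the coding part (right), for each OSS library, with replicate numbers at the points and bars for mean ± SD of 3 libraries. After siPiwi the coding reads lie far below siGFP while the rest of the locus overlaps it, and after siTj the coding reads are lower with the rest of the locus at 1.03 to 4.53 CPM.

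siTj and siPiwi were also compared directly. piwi was at 120 to 313 CPM in siTj and at 34.2 to 118 CPM in siPiwi, and the groups did not overlap. The log2 fold change of siTj over siPiwi was 1.19 (SE 0.498, edgeR adjusted p = 1) without pairing, in a fit that called 0 of 10724 genes (0.0%), where 353 had an unadjusted p under 0.05 and DESeq2 called 80. It was 1.18 (SE 0.378, edgeR adjusted p = 0.222) with the replicate block, in a fit that called 73 genes (0.681%). The difference did not pass the threshold, and its 95% interval in the blocked fit was 0.35 to 2.00. Without siPiwi replicate 2 the blocked change was 0.73 (edgeR adjusted p = 0.293).

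In the depletion of Cubitus interruptus, the target ci was at 41.9, 61.6 and 72.4 CPM in siCi and 116.3, 122 and 182 CPM in siGFP, with no overlap and a blocked log2 change of −1.24 that did not pass (edgeR adjusted p = 0.92). piwi was at 446, 645 and 913 CPM in siCi replicates 1, 2 and 3, against 721, 661 and 902 CPM in siGFP. The groups overlapped, with means of 668 ± 235 CPM in siCi and 761 ± 125 CPM in siGFP (SD, n = 3 each). The log2 fold change was −0.19 (SE 0.491, edgeR adjusted p = 1), with a 95% interval of −1.26 to 0.88, and it was −0.22 with the block (SE 0.365, edgeR adjusted p = 0.933). Both edgeR fits called 0 of 10724 genes (0.0% each), although 83 and 412 had an unadjusted p under 0.05. DESeq2 called 2 genes.

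Against siCi in place of siGFP, siTj again held less piwi, at 120, 169.6 and 313 CPM in siTj and 446, 645 and 913 CPM in siCi, with no overlap. The log2 fold change was −1.73 (SE 0.505, edgeR adjusted p = 0.457) without pairing, where 1 of 10724 genes (0.00932%) was called. piwi fell in the fit with the replicate block (−1.78, SE 0.376, edgeR adjusted p = 0.0445), which called 156 genes (1.45%), and in DESeq2 (−1.71, adjusted p = 0.031), which called 113 of 9946 (1.14%). Leaving out siTj 1, siTj 3, siCi 2 or siCi 3 ended the blocked call, with adjusted p between 0.0702 and 0.201 by edgeR. The order of group means in OSS cells was siGFP, siCi, siTj and siPiwi from high to low. siGFP and siCi did not differ beyond their spread, and neither did siTj and siPiwi by the adjusted tests.

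Reads antisense to piwi were few in OSS cells. siTj held 7, 82 and 9 antisense reads, siPiwi 8, 74 and 8, siCi 278, 31 and 3, and siGFP 1, 41 and 21, in replicates 1, 2 and 3. As a share of unique piwi reads of both strands, the highest values were 9.24% in siPiwi replicate 2, 1.82% in siCi replicate 1 and 1.40% in siTj replicate 2, against 0.0172% to 0.107% in siGFP. The median antisense share over 4963 genes with at least 100 sense reads in every library was 6.49% in siPiwi replicate 2, 0.987% in siCi replicate 1 and 4.90% in siTj replicate 2. All siTj and all siPiwi shares lay above all siGFP shares (exact two-sided permutation p = 0.1 each, the smallest possible), while siCi overlapped siGFP. The difference in mean share was 3.27 percentage points in siPiwi over siGFP, and 0.31 points without siPiwi replicate 2. In siTj over siGFP it was 0.583 points, and 0.205 points without siTj replicate 2. As levels, antisense reads were at 0.399, 2.41 and 0.627 CPM in siTj, at 0.36, 3.49 and 0.502 CPM in siPiwi and at 0.124, 0.708 and 0.528 CPM in siGFP. These levels overlapped between siTj and siGFP and between siPiwi and siGFP.

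The neighbourhood of piwi was examined next. Of 13 other genes within 20 kb, 11 were tested in OSS cells, and none was called between siTj and siGFP with or without the block, against 3.52% of all genes with it. Their median log2 change in the blocked fit was 0.04, against 0.02 over all genes tested. The nearest gene upstream, CG12253, was low in every group, at 7.36, 4.29 and 16.9 CPM in siTj and 13.5, 13.7 and 36.5 CPM in siGFP. It was lower in siTj within each replicate number while the groups overlapped, and its blocked log2 change of −1.19 (SE 0.342) missed the threshold with an edgeR adjusted p of 0.0834. SCAR, which converges on piwi, averaged 81.0 ± 6.31 CPM in siTj and 69.6 ± 19.5 CPM in siGFP (SD, n = 3 each), a blocked log2 change of 0.25 (edgeR adjusted p = 0.547). ATPsynG, a subunit of the ATP synthase, had a blocked log2 change of −0.54 (edgeR adjusted p = 0.397), and aub had 0.39 (edgeR adjusted p = 0.794).

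**Figure D3:**
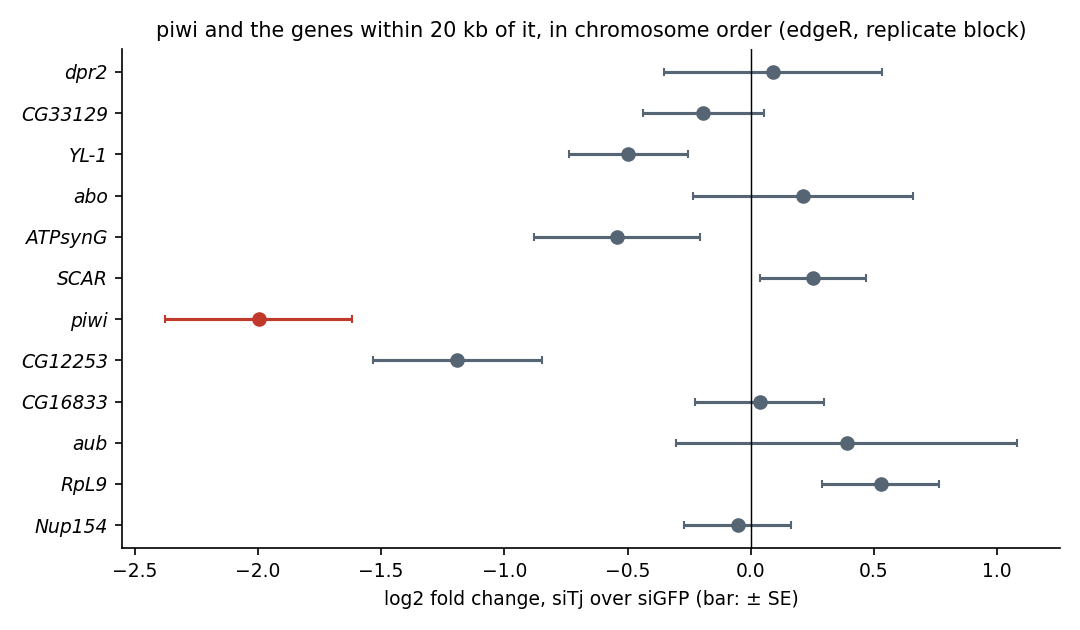
Log2 fold change of siTj over siGFP (x axis) with its standard error from the edgeR fit with the replicate block, for piwi and the 11 tested genes within 20 kb, in chromosome order from top to bottom. piwi at −1.998 is the lowest and the only one of these past the threshold, and CG12253 at −1.19 is next.

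TJ binding and histone marks were read from the deposited lists. The single list of TJ peaks, made from the TJ ChIP of OSS cells, has 1 peak at piwi, at chr2L:10986801-10987300, which covers bases 120 to 619 downstream of the annotated start and lies wholly inside the gene. A TJ peak inside the gene or within 1 kb is held by 2101 of 16369 genes (12.8%), and 7.61% hold one within 1 kb of their start. The same peak also lies within 1 kb of the start of CG12253. The letters under the peak are not analysed here, so no motif was looked for.

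H3K4me3 marks active starts. For OSS cells labelled Plain there are 2 lists, whose files carry other numbers than the sample titles. The titles and the record of which file belongs to which sample were followed, so which library is 1 and which is 2 is uncertain. The list of Plain 1 has summits 110 bases downstream of the piwi start (score 65.4) and 507 bases upstream of it (score 67.8), and Plain 2 has 1 summit 506 bases upstream (score 13.7). The scores are the authors' own values per peak, which the lists do not name and which were read as −log10 of a p or q, and they were ranked only within a list. The siTj library has no H3K4me3 summit inside piwi or within 1 kb, its nearest lying 5163 bases away, while the siGFP library has 1 summit 168 bases downstream (score 9.72) and 1 summit 503 bases upstream (score 8.65). The upstream summits lie 117 to 121 bases inside CG12253. All of these scores were below the median of their lists, which was 19.0 in siGFP, 85.1 in Plain 1 and 18.5 in Plain 2.

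With 1 library per condition there is no test of the missing summit. The siTj list is shorter as a whole, with 3134 summits against 6255 in siGFP. Of 6988 genes with an siGFP summit by the same rule, 2888 (41.3%) had none in siTj. Among those with a TJ peak within 1 kb of their start the share was 33.2%, and among those without one it was 42.5%. Of the siGFP summits below the median score, as both at piwi were, 29.8% had a siTj summit within 1 kb, against 74.5% of those at or above it. Of the 13 neighbours, 11 had an siGFP summit, and 8 of these, SCAR, abo and ATPsynG among them, also had a siTj summit. The other 3 were CG12253, CG16833 and CG16743. H3K9me3, the mark of silent chromatin, had no summit within 1 kb of piwi in any of the 4 lists, the nearest lying 28624 to 54269 bases away.

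**Figure D4:**
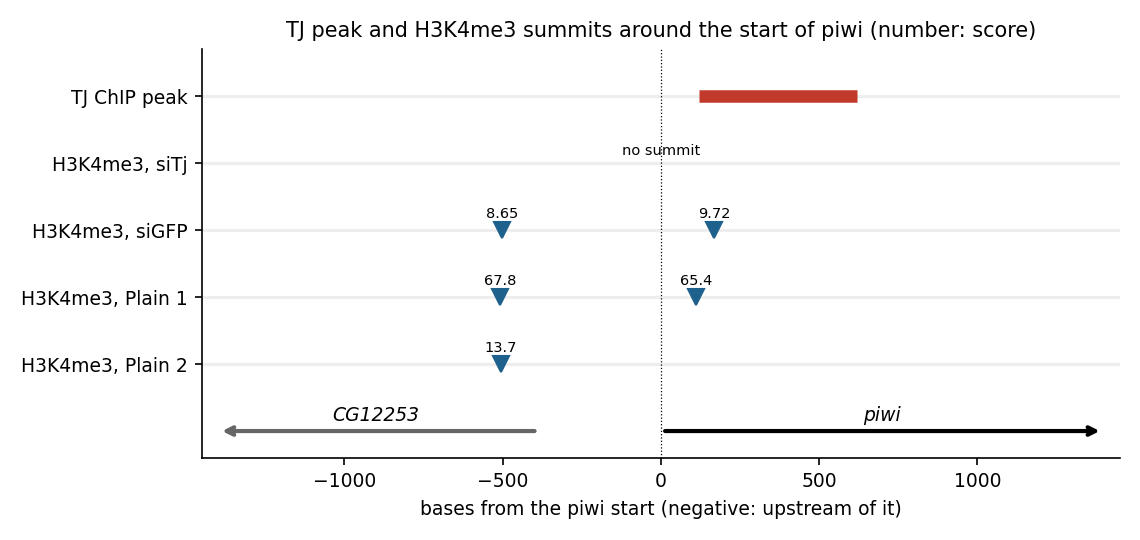
Positions in bases from the annotated piwi start (x axis, negative upstream) of the TJ ChIP peak (bar) and of H3K4me3 Cut&Run summits (triangles, with the authors' score) in each OSS library, with the directions of piwi and CG12253 at the bottom. The TJ peak lies 120 to 619 bases downstream of the start, and the siTj row has no summit where siGFP has 2.

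In the ovaries, piwi was lower in the mutant of all 6 lines. The mutant and the wild-type library held 353 and 433 CPM in FITS, 154 and 208 CPM in FlamBG, and 149 and 277 CPM in FlamKG. They held 215 and 390.2 CPM in FPSE1, 161.7 and 183 CPM in FPSE2A, and 154 and 165.5 CPM in FPSE2B. The difference was widest in FlamKG and FPSE1, where the mutant was at 53.9% and 55.1% of wild type, and narrowest in FPSE2B, at 93.2%. Across lines the groups overlapped, from 149 to 353 CPM in mutants and from 165.5 to 433 CPM in wild types.

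The log2 fold change of mutant over wild type with the line as a block was −0.46 (SE 0.155) and did not pass (edgeR adjusted p = 0.436). This fit called 0 of 11155 genes (0.0%), although 1242 had an unadjusted p under 0.05. DESeq2 called 345 genes and not piwi (adjusted p = 0.169). The mean over lines was −0.46 ± 0.339 (SD, n = 6), with an exact sign-flip permutation p of 0.0312, the smallest that 6 lines allow and not adjusted over genes. Of 11155 genes, 735 (6.59%) were lower in the mutant of all 6 lines.

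Other somatic and germline genes were examined beside piwi in these ovaries. tj was lower in the mutant of 5 lines and at 103.1% of wild type in FPSE2B, with a log2 change of −0.95 (SE 0.3, edgeR adjusted p = 0.436). flam had −1.52 (SE 0.547, edgeR adjusted p = 0.436). The mutant level of flam was 9.99% of wild type in FPSE1, 12.8% in FlamKG and 26.1% in FlamBG. It was 55.3% in FITS, 76.9% in FPSE2B and 123.6% in FPSE2A. Summed follicle cell markers, 10 genes, were at 399 to 5449 CPM in mutants and 1116 to 7054 CPM in wild types. Within lines this sum was lower in the mutant of FlamBG, FlamKG (854 against 7054 CPM) and FPSE1. It was higher in the mutant of FITS, FPSE2A and FPSE2B. Summed germline markers, 9 genes, were at 893 to 2880 CPM in mutants and 2253 to 6199 CPM in wild types, and 2 of them were lower in all 6 lines, against 1 of the 10 follicle cell markers. The germline sum was lower in the mutant of FlamBG, FlamKG (893 against 3146 CPM), FPSE1 and FPSE2B, and higher in that of FITS and FPSE2A. Summed muscle markers, 6 genes, were at 700 to 5712 CPM in mutants and 330 to 3020 CPM in wild types. The muscle sum was higher in the mutant of FITS, FlamBG (5712 against 330 CPM), FlamKG and FPSE2B, and lower in that of FPSE1 and FPSE2A. The part of these genes in the piwi values was not tested.

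Compared on a scale common to both tissues, OSS cells held more piwi than whole ovaries. piwi was at 655, 658 and 953 CPM in the siGFP OSS libraries, against 161 to 431 CPM in the 6 wild-type ovaries, with a median of 240 CPM. No ovary reached the lowest OSS library. The log2 fold change of siGFP OSS over wild-type ovary was 1.46 (SE 0.347, edgeR adjusted p = 0.00541), in a comparison where 5097 of 11753 genes (43.4%) were called and the median over all genes was −0.28. On the authors' RPM with limma the change was 1.52 and missed the threshold (adjusted p = 0.0727). Cell line, tissue makeup and preparation cannot be told apart in it.

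Set beside the other Argonaute genes per kb of transcript, piwi and AGO2, the siRNA-binding Argonaute, were the highest in OSS cells. The transcript length includes the UTRs and is 7898 bases for AGO1 and 3083 for piwi. Because 3' UTRs were covered less in OSS cells than in ovaries, as given below, genes with long 3' UTRs read lower per kb there. The size of this effect on the ranking was not tested. piwi held 245 ± 55.6 CPM per kb in siGFP OSS cells (SD, n = 3) and 88.8 ± 36.7 in wild-type ovaries (SD, n = 6). AGO2 held 272 ± 38.9 in siGFP OSS cells and 76.8 ± 26.6 in wild-type ovaries. AGO1, which binds microRNAs, held 32.9 ± 0.187 in siGFP OSS cells and 63.4 ± 11.6 in wild-type ovaries. The germline genes AGO3 and aub held 0.788 ± 0.475 and 0.744 ± 0.435 in siGFP OSS cells, against 128.9 ± 78.7 and 37.1 ± 18.1 in wild-type ovaries. In OSS cells the piwi and AGO2 ranges overlapped, as did those of AGO3 and aub. In siGFP OSS cells over wild-type ovaries AGO2 was higher, as piwi was, and AGO1, AGO3 and aub were lower, with log2 changes of 1.82, −0.94, −7.34 and −5.64 (edgeR adjusted p at most 0.0116).

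**Figure D5:**
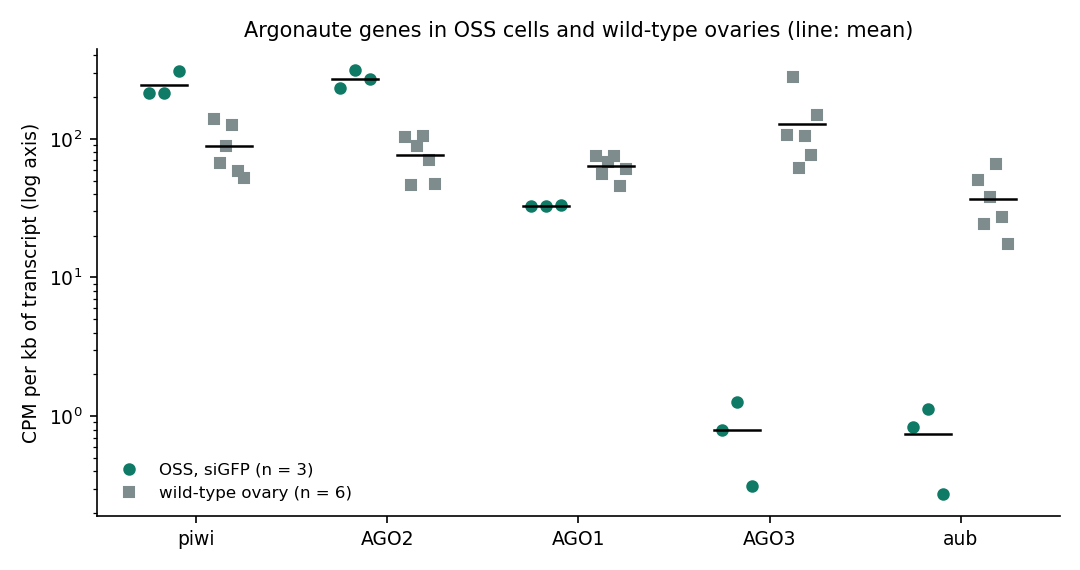
CPM per kb of transcript on a log axis for the 5 Argonaute genes in each siGFP OSS library (circles) and each wild-type ovary (squares), with lines at the means. piwi and AGO2 lie above 200 CPM per kb in OSS cells, while AGO3 and aub lie near 1 CPM per kb there and far higher in ovaries.

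Within the OSS knockdowns piwi was the only Argonaute gene called. The other 4 had blocked log2 changes in siTj over siGFP between 0.14 (AGO3, edgeR adjusted p = 0.957) and 0.39 (aub). Without the block AGO3 had 2.42 (SE 1.77, edgeR adjusted p = 0.782). None of the 4 was called after siPiwi or siCi by either edgeR fit, and these fits called 0 of 10724 genes (0.0% each). AGO3 was at 37.3 CPM in 1 siTj library and 52.5 CPM in 1 siPiwi library, and at most 5.58 CPM in all other OSS libraries; these were the libraries with the high antisense shares.

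The distribution of piwi reads along the gene also differed between cell line and ovary. Its 3' UTR held 1.06% to 1.95% of the piwi reads in siGFP OSS cells and 5.85% to 14.8% in wild-type ovaries, with no overlap (exact two-sided permutation p = 0.0238, the smallest possible, and 0.0661 adjusted over 25 tests). Per base, the 3' UTR was covered at 8.12 ± 2.81% of the coding part in siGFP OSS cells (SD, n = 3) and at 65.8 ± 28.9% in wild-type ovaries (SD, n = 6). This was general. Of 2960 genes with at least 100 coding reads in each library and a 3' UTR of at least 200 bases, 2001 (67.6%) had every siGFP value below every wild-type value, with medians of 23.8% in siGFP and 86.7% in wild type. The log2 ratio of siGFP OSS to wild-type ovary was −2.87 at piwi, −1.80 at the median gene, and lower than at piwi in 23.0% of the genes. The 3' UTR share did not differ beyond its spread between the siRNA groups, at 1.64% in siTj, 1.97% in siPiwi, 1.21% in siCi and 1.41% in siGFP. The difference of siPiwi from siGFP was 0.559 percentage points, and −0.105 points without siPiwi replicate 2.

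Antisense reads at piwi in ovaries lay mostly in its 3' UTR. They made up 1.48% to 5.09% of piwi reads in mutants and 1.29% to 7.22% in wild types, and 82.3% to 95.3% of them lay in the piwi 3' UTR across the 12 ovaries. The counts separate the strands, but within the 191 bases shared with SCAR a read antisense to piwi is a sense read of SCAR. The piwi 3' UTR has 458 bases, and how many of its antisense reads lay in the shared bases is not known. SCAR averaged 120.2 ± 16.6 CPM in mutants and 133.8 ± 16.8 CPM in wild types (SD, n = 6 each), and its own 3' UTR held 25.5% to 34.7% of its reads in mutants and 25.4% to 42.7% in wild types, against 6.98% to 12.3% in siGFP OSS cells.

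The genes whose levels most resembled piwi over the 9 libraries of siTj, siCi and siGFP were led by spn-E, a helicase of the piRNA pathway (r = 0.986 on log2(CPM + 1)), and RpIII128, a subunit of RNA polymerase III (0.981). They were followed by fs(1)Ya (r = 0.973), ms(2)34Fe (0.971), CG9449 (0.969), Cyp313a1 (0.966), CG7120 (0.962), CG4452 (0.959), CG44303 (0.953) and CG4570 (0.953). These values are a description over libraries in which the siTj group separates from the rest in piwi, which raises r for genes that separate in the same way. With the group means removed r was 0.924 for spn-E and 0.909 for RpIII128, and over all 12 OSS libraries, where piwi is also the siRNA target, it was 0.515 and 0.452. spn-E averaged 75.5 ± 18.8 CPM in siTj and 188 ± 6.13 CPM in siGFP (SD, n = 3 each), with a blocked log2 change of −1.35 (SE 0.274, edgeR adjusted p = 0.026). Here spn-E was picked by its r with piwi over these same libraries, so this change is not separate support for the likeness. It is also a member of the fixed germline piRNA list below.

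Over the 12 ovaries the list was another. It was led by metro (r = 0.976), Cap-H2, a condensin subunit (0.973), and armi, the helicase that works in somatic piRNA production (0.972). Then came nord (0.971), CG4679 (0.971), CG9839 (0.97), plum (0.965), CG15822 (0.965) and CG34347 (0.96). armi stood at rank 14 of 10723 in the 9 OSS libraries (r = 0.945) and at rank 3 of 11154 in ovaries, and metro also had r = 0.916 in the 9 OSS libraries. tj had r = 0.936 in ovaries (rank 60) and 0.65 in the 9 OSS libraries (rank 673). aub had r = 0.956 in ovaries (rank 12) and −0.494 in the 9 OSS libraries.

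Other genes of the pathway were followed as lists that do not hold piwi. Of 13 genes of somatic piRNA production, the blocked fit of siTj over siGFP called 3 lower and 0 higher, namely armi (log2 −2.55, SE 0.314, edgeR adjusted p = 0.00499), fs(1)Yb, which organises the somatic processing bodies (−1.70, adjusted p = 0.0222), and shu, a cochaperone needed for loading (−1.67, adjusted p = 0.0306). armi averaged 312 ± 125 CPM in siTj and 1864 ± 910 CPM in siGFP (SD, n = 3 each). Not called were SoYb (−1.04, adjusted p = 0.0561), zuc, the nuclease that cuts precursors (0.34, adjusted p = 0.569), and vret (−0.19, adjusted p = 0.742). The list median was −0.67, against 0.02 over all genes, of which 3.52% were called. Without the block 0 of the 13 were called.

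Of the 15 matched genes that act with Piwi in nuclear silencing, the same fit called 3 lower and 0 higher. These were mael (log2 −2.03, SE 0.218, edgeR adjusted p = 0.00499), nxf2, of the complex that carries out silencing below Piwi (−1.69, adjusted p = 0.00499), and the gene of HP1a, which binds methylated histones (−0.93, adjusted p = 0.0438). mael averaged 34.5 ± 1.08 CPM in siTj and 141.7 ± 17.6 CPM in siGFP (SD, n = 3 each). arx (−0.14, adjusted p = 0.909) and CG9754, known as Panx (−0.56, adjusted p = 0.421), which work in the same step, were not called. The list median was −0.03, and without the block mael alone was called. Of 15 germline piRNA genes 3 were called lower, spn-E, rhi and CG8920, with a list median of 0.12. After siPiwi, 0 genes of these lists were called by either edgeR fit, and both fits called 0 of 10724 genes (0.0% each). Medians in the blocked fit were −0.27 for somatic piRNA production, −0.16 for nuclear silencing and 0.02 for the germline list, against 0.01 over all genes. In the ovaries 0 genes of these lists were called by edgeR, in a fit that called 0 of 11155 genes (0.0%). Below zero were 11 of 13, 15 of 15 and 15 of 15, with medians of −0.41, −0.45 and −0.49, against −0.07 over all genes. The share of all genes below zero was not counted, so these counts cannot be set against it.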

How the data were processed

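Long RNA was total RNA depleted of ribosomal RNA, per the labels' protocols. The authors deposited whole-number counts of reads per gene, unique and total, sense and antisense, for the locus and its parts, with an RPM column, per the file headers. Peak and summit lists are the authors' own; the score of a summit, read as −log10, is taken from the deposited lists; the TJ list is 1 joint list and each Cut&Run list is 1 library. Tools named in the submitters' processing notes are Bowtie2, MACS2, DESeq2 and FastQC; their roles, versions and the genome build are not given in the sources used here, but the piwi bounds match Release 6. Unique sense locus counts were tested with edgeR 4.0.16 (filterByExpr by group, TMM, quasi-likelihood, R 4.3.3), over the 12 OSS libraries, the 12 ovaries with line as block, or siGFP with wild type. Replicate numbers pair OSS libraries (r of deviations 0.289 to 0.911 in all 18 pairs), so blocked values stand beside unpaired ones. DESeq2 1.42.0, limma 3.58.1 on RPM, and exact permutation served as alternatives. Gene tests were checked on simulated data without any replicate or line effect, so that check does not bear on the choice between blocked and unpaired fits. Genes named were the Argonaute genes, genes within 20 kb, the 10 most like piwi per tissue (1 of those in ovaries is not reported here), tj, ci, flam, and listed piRNA genes called or among the first listed. The members and lists were chosen with earlier results of these data known. The microRNA tables were not used here.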

Additional observations from a re-analysis of the deposited data

Results flagged for a closer look

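Among 33 sets of 6 ovary values examined for a value that stands apart by Dixon's criterion, 3 held one, and chance gives about 1 in 20. All 3 came from the mutant of the FITS line. Its piwi level was 353 CPM, with the next mutant at 215 CPM. Its tj level was 309.6 CPM, with the next at 117.7 CPM, and its ci level was 154.2 CPM, with the next at 89.2 CPM. The FITS wild type was also the highest of the wild types in piwi, at 433 CPM. Without the FITS line the log2 change of mutant over wild type was −0.50 (edgeR adjusted p = 0.405).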

How the results depend on the processing

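The piwi change in siTj over siGFP kept its direction under every alternative run, and it passed the threshold with the replicate block (−1.998) and in DESeq2 (−1.89). Leaving out 1 library gave −2.53 to −1.80 without the block and −2.31 to −1.89 with it, where the call held without siTj 2 (−2.22), siTj 3 (−2.31), siGFP 2 (−2.05) or siGFP 3 (−2.26). For siPiwi over siGFP DESeq2 passed (−3.11), and leaving out 1 library gave −3.53 to −2.72, or −3.93 to −2.74 with the block, where siGFP 2 left out gave −3.19 and siGFP 3 −3.39, both past the threshold. siTj over siCi passed with the block (−1.78) and in DESeq2 (−1.71), with −2.20 to −1.57 on leaving out 1 library and −2.12 to −1.57 with the block, where it passed without siTj 2 (−1.99) or siCi 1 (−2.12). siCi over siGFP changed sign to 0.0063 without siCi 1, in a range of −0.58 to 0.0063. The ovary change passed only in the unadjusted sign-flip test (−0.46). siGFP OSS over wild-type ovary missed the threshold on the authors' RPM (1.52, limma adjusted p = 0.0727), an alternative chosen after seeing the data, and the cause was not tested. On that scale the median of all genes was −0.22 in this comparison, against −0.28 in the edgeR fit, and −0.68 in siTj over siGFP, against 0.08. No other piwi call changed with the block, and differences in part shares moved by less than the spread between replicates on leaving out 1 library. The antisense share difference of siPiwi over siGFP was 3.27 points, and 0.31 to 4.77 points on leaving out 1 library, with siPiwi 2 making most of both the difference and the spread. Leaving out 1 library, also chosen after seeing the data, put the level in the rest of the locus at 82.1% to 278% of siGFP in siPiwi and 23.4% to 81.7% in siTj. With 500 bases in place of 1 kb the H3K4me3 summits at piwi numbered 1 in Plain 1, 0 in Plain 2 and 1 in siGFP; within 2 kb Plain 2 had 2; at or above the median score all 3 lists had 0. Of the 10 genes most like piwi in OSS cells, 0 remained when siPiwi was included or group means were removed.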
